A study of Rattus norvegicus with 11 samples.

Results

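Ces1a, Ces1d, Aldh3a1 and Aoc3 encode rat enzymes that act on esters, aldehydes and amines. They are 4 of the 16898 genes named on the array, and they were read by 5 of its 30367 probes: Ces1a by 2 probes and each of the others by 1. The genes were chosen for their low intensity in exosome-treated RF cells relative to untreated RF cells, so the values in RF cells are given as a description and carry no test. All 5 probes passed the filter on dim probes.

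The study asked how cultured rat cells respond to exosomes, small membrane vesicles released by cells, from a rat pancreatic adenocarcinoma line called AS. One exosome kind came from AS cells and the other, ASTspan8, from AS cells that express tetraspanin 8, a membrane protein carried on vesicles. 9 groups were measured on 11 one-colour arrays: EC cells, labelled as an endothelial cell line, after ASTspan8 exosomes (2 arrays), after AS exosomes (1 array) and as untreated control (1 array); RF cells, labelled as endothelial fibroblasts, after ASTspan8 exosomes, after AS exosomes and as untreated control (1 array each); RNA of the ASTspan8 exosomes themselves (2 arrays); and cells of the pancreatic adenocarcinoma line ASML with CD44 knocked down and as wild type (1 array each). All cell lines were kept in serum-containing medium with the antibiotic G418, controls included, and the exosome dose, the time of exposure, the way tetraspanin 8 was expressed and the number of clones are not given in the sources used here. Labels of the RF control array conflict: its title reads RF and its cell type is the fibroblast one, whereas its source field names endothelial lines. It was grouped by its title, and every RF difference from control rests on it. CD44 is an adhesion receptor, and ASML is a different line from the AS cells that gave the exosomes. Nothing in the labels says whether the duplicate arrays came from separate cultures, and a p-value here therefore reflects how far these particular arrays differ.

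Carboxylesterases are hydrolases of the endoplasmic reticulum that cleave ester bonds in drugs and in lipids, and they are most abundant in liver. Ces1d is known in the mouse as a triacylglycerol hydrolase of liver and fat, and Ces1a lies in the same gene cluster. Aldh3a1 oxidises aromatic and medium-chain aldehydes, is abundant in the cornea, and is known in rat liver as a gene induced through the aryl hydrocarbon receptor. Aoc3, also called vascular adhesion protein, is a copper-containing amine oxidase on the surface of endothelial, smooth muscle and fat cells, where it turns primary amines into aldehydes and hydrogen peroxide.

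The promoters of the carboxylesterase pair are shown because the promoter set used here held no entry for Aldh3a1 or Aoc3. Both carboxylesterase genes, like Aoc3, had their highest value on the untreated RF array. In the RefSeq table of rat assembly GRCr8, 5 genes of the cluster lie side by side on chromosome 19 in the order Ces1f, Ces1e, Ces1d, Ces1c and Ces1a. The sequences are on the plus strand and cover 300 bases that span the annotated start, most of them before it, at chr19:30046244-30046543 for Ces1d and chr19:30132428-30132727 for Ces1a. Capitals mark GCGTG, the core of the xenobiotic response element, and CCAAT or its reverse complement ATTGG, the CCAAT box.
Ces1d: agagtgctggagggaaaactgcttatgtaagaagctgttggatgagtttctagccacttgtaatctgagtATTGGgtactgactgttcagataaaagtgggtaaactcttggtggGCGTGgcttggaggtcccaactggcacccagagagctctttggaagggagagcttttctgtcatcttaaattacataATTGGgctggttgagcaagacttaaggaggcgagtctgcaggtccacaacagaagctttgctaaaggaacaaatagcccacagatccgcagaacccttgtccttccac
Ces1a: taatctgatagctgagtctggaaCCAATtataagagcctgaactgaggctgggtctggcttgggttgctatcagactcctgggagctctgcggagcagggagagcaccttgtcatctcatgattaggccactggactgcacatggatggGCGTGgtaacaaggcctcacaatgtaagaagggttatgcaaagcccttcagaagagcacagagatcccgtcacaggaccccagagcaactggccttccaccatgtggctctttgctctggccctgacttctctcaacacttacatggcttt
Each promoter held 1 GCGTG on the plus strand, whose first base lay at position -135 in Ces1d and at position -101 in Ces1a. GCGTG was searched on both strands and was present in 31.1% of the 27457 rat promoters of that table. It was not found in the promoter windows of Ces1c, Ces1e or Ces1f. CCAAT matched at 2 places in Ces1d and at 1 place in Ces1a, and 37.7% of all promoters held it on either strand. TGACNNNGC, the core of the antioxidant response element, and AGGTCA, a core motif of nuclear receptors, were not found in either window, and 12.2% and 15.7% of all promoters held them. After alignment of their 300 bases, the Ces1a and Ces1d windows were identical in 44.8% of 319 aligned columns, gaps included. That lay within the 44.5% to 56.3% of the 10 pairs in the cluster. No value for unrelated windows is given here, so the share is a description. A match of these letters is a description and is not a binding site. Aldh3a1 and Aoc3 are named without a promoter sequence.

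The labels of the cells were set against marker genes. The defining endothelial genes Pecam1, Kdr, Tek and Tie1 had log2 intensities between 5.96 and 7.50 on the 7 EC and RF arrays, and Cdh5 had 7.87 to 8.36 there. Of the 15 endothelial markers, 2 to 4 were above a log2 intensity of 9 on those arrays, among them Egfl7 (10.44 to 11.17) and Eng (9.27 to 10.47), and Vwf lay between 8.82 and 10.44. Col1a1 and Col1a2, the chains of type I collagen, had 12.41 to 17.62 on those arrays. The cells are therefore called EC and RF, and neither label is taken as settled. None of 10 adipocyte markers and none of 10 hepatocyte markers was above a log2 intensity of 9 on any EC or RF array, although Aoc3 and Ces1d are known from fat and liver. The samples are bulk RNA, in which fewer cells of a type and less RNA per cell cannot be told apart.

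Ces1a had its highest intensity on the untreated RF array and lower values after both exosome kinds. On its brighter probe (A_64_P068930), log2 intensity was 10.26 in RF cells after ASTspan8 exosomes and 9.62 after AS exosomes, against 12.93 in RF control cells. The dimmer probe (A_64_P141469) read 9.06 after ASTspan8 exosomes and 8.58 after AS exosomes, against 11.79 in RF control cells. Both probes put the array after AS exosomes lowest and the control array highest. Against control, the brighter probe differed by -2.67 after ASTspan8 exosomes, a 6.36-fold lower intensity, and by -3.31 after AS exosomes, a 9.92-fold lower intensity. The dimmer probe gave -2.73 and -3.21 in the same order.

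Ces1d showed the largest gap of the 4 genes between treated and untreated RF cells. Log2 intensity of Ces1d (A_64_P148413) was 7.19 after ASTspan8 exosomes and 7.68 after AS exosomes, against 11.92 in RF control cells. Both treated RF arrays lay within the range of the 4 EC arrays or below it, and the RF control array stood apart from the other 10. The difference from RF control was -4.73 after ASTspan8 exosomes, or 26.5-fold lower, the second lowest difference of the 11069 genes compared. After AS exosomes it was -4.24, or 18.9-fold lower, the lowest of those genes. Ces1d was chosen on these arrays, so its ranks are a description and not a result.

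The other genes of the Ces1 cluster stayed low in every group. The 2 probes for Ces1c lay between 5.96 and 7.08 on the 11 arrays, the 2 for Ces1e between 6.04 and 7.02, and the 1 for Ces1f between 6.39 and 7.53. Only Ces1f of these 3 genes passed the filter, and its log2 intensity was 7.17 after ASTspan8 exosomes and 6.95 after AS exosomes, against 7.53 in RF control cells. Of the cluster, Ces1a and Ces1d were thus the genes with a value above 8 on any array. Cesl1, a carboxylesterase-like gene farther along the same chromosome, read 7.66 after ASTspan8 exosomes and 6.87 after AS exosomes, against 8.22 in RF control cells. The carboxylesterase values rest on probes whose cross-hybridisation between near-identical paralogs was not tested.

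**Figure D1:**
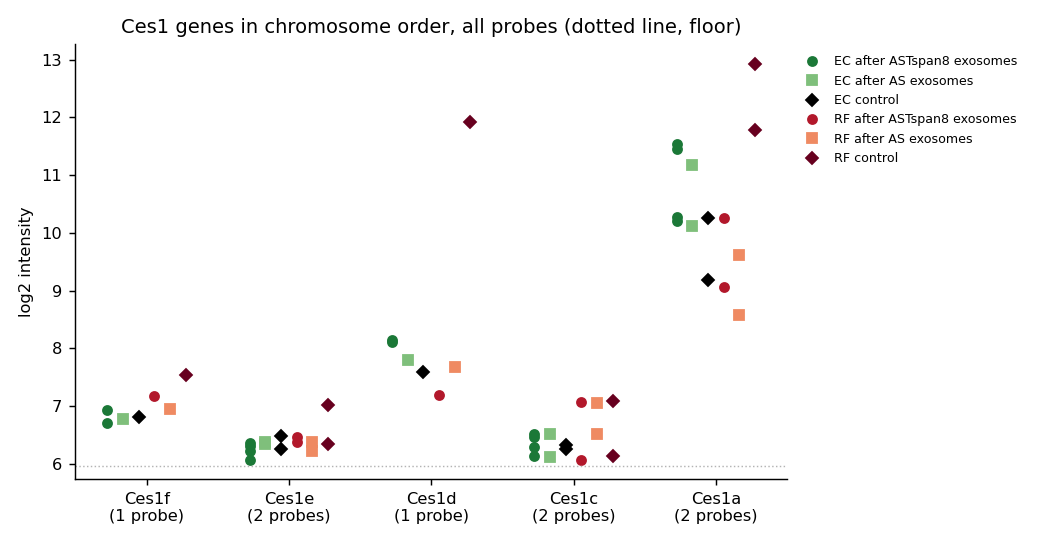
Log2 intensity (vertical axis) of the probes for the 5 genes of the Ces1 cluster, in their order on the chromosome, on the arrays of RF and EC cells, with treated groups left of their control and the dotted line at the floor of 5.96. The RF control points for Ces1a (12.93 on the brighter probe) and Ces1d (11.92) lie above all other points of their genes, and the probes of Ces1c, Ces1e and Ces1f stay at or below 7.53.

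Aldh3a1 separated the exosome kinds in RF cells. Its log2 intensity (A_64_P067654) was 10.33 after ASTspan8 exosomes and 13.92 after AS exosomes, against 14.35 in RF control cells. The array after ASTspan8 exosomes stood far below the other 2 RF arrays, which were close to each other. Against control the difference was -4.02, or 16.2-fold lower, after ASTspan8 exosomes and -0.43, or 1.35-fold lower, after AS exosomes. ASTspan8 against AS exosomes differed by -3.59, or 12.0-fold lower, the lowest of the 11069 genes in that comparison.

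Aoc3 was low after both exosome kinds, and lower after ASTspan8 exosomes. Its log2 intensity (A_64_P100516) was 9.22 after ASTspan8 exosomes and 10.38 after AS exosomes, against 12.46 in RF control cells. The differences from control were -3.24, or 9.45-fold lower, and -2.08, or 4.23-fold lower. ASTspan8 against AS exosomes differed by -1.16, or 2.23-fold lower.

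Counted over genes, 4 of the 4 were at least 2-fold lower after ASTspan8 exosomes than in RF control cells, where 5.25% of 11069 genes were, and 5.16% of genes were as much higher. After AS exosomes 3 of the 4 were lower, where 1.17% of genes were and 1.0% were higher, and Aldh3a1 was the exception. In ASTspan8 against AS exosomes 2 of the 4 were at least 2-fold lower, where 4.83% of genes were, and none was at least 2-fold higher, where 4.87% were. The genes were chosen on these arrays, so nothing follows from these counts, and each comparison is 1 array against 1 with no replicate check. The 2 comparisons with control share the control array, on which all 3 of Ces1a, Ces1d and Aoc3 had their highest value of the 11 arrays.

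The RF control array also differed from the treated RF arrays in fibroblast genes. The median log2 intensity of 15 fibroblast markers was 12.21 in RF cells after ASTspan8 exosomes and 12.78 after AS exosomes, against 14.67 in RF control cells. Their summed intensity was 339000 after ASTspan8 exosomes and 616000 after AS exosomes, against 806000 in RF control cells. Among them, the collagen gene Col3a1 read 12.21 after ASTspan8 exosomes and 13.99 after AS exosomes, against 15.82 in RF control cells. Not every marker was lower after both exosome kinds. Col1a1 read 12.41 after ASTspan8 exosomes and 14.88 after AS exosomes, against 14.67 in RF control cells. In the same order, Fn1 read 16.41 and 16.46, against 16.44, and Postn read 9.71 and 8.25, against 9.60. The summed intensity of 11 smooth muscle and pericyte markers was 46200 after ASTspan8 exosomes and 42500 after AS exosomes, against 47400 in RF control cells. Col1a1, Col1a2 and Dcn lay between 12.41 and 17.40 on the RF arrays, while Fap and Thy1 lay between 6.10 and 6.32 there, near the floor. The part of these values in the results for the 4 genes was not tested.

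**Figure D2:**
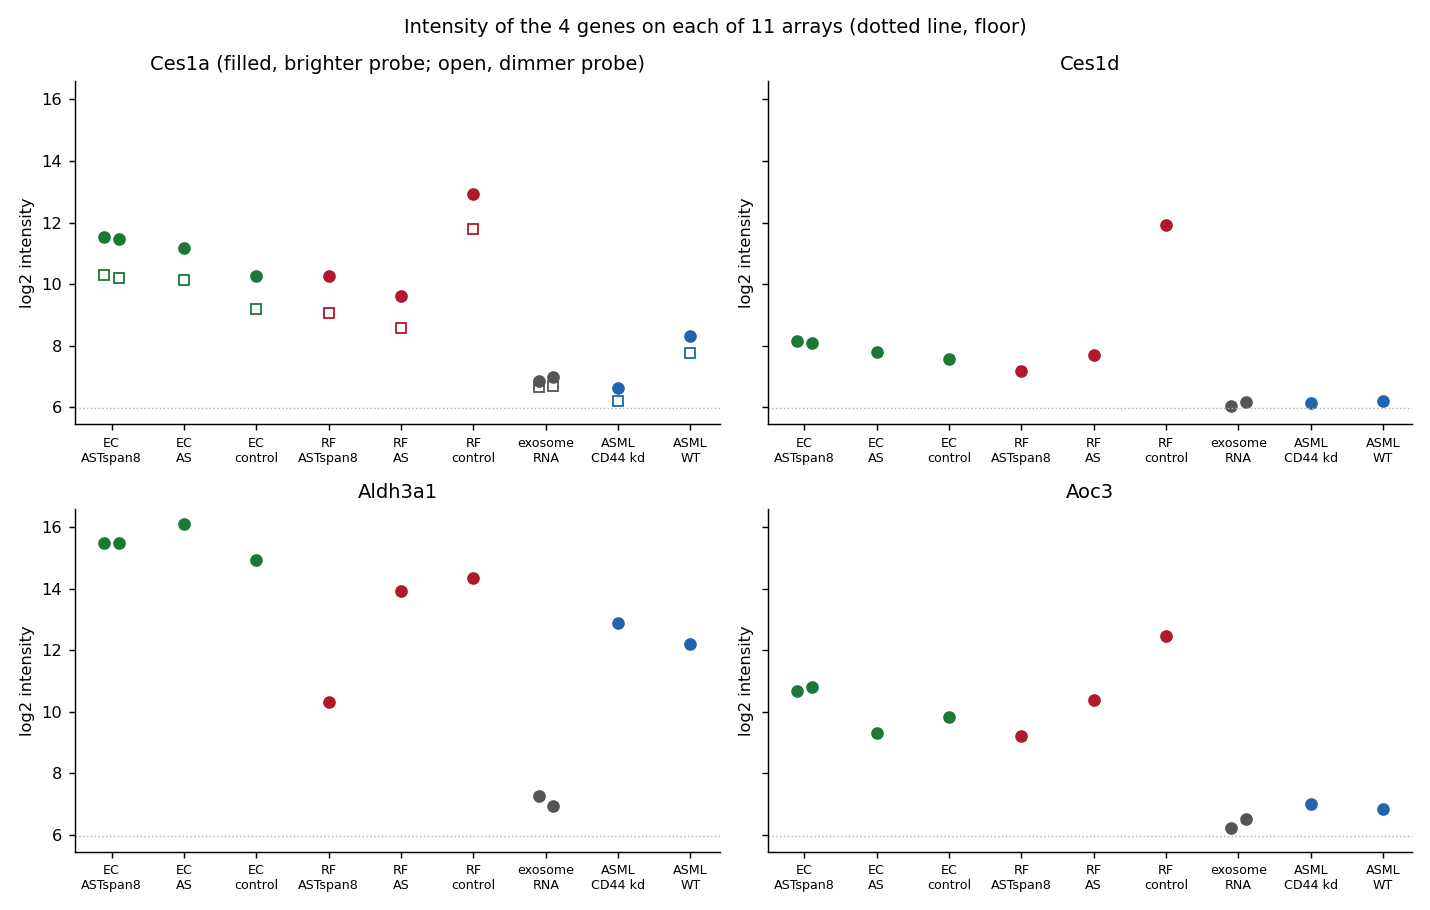
Log2 intensity (vertical axis) of each probe of Ces1a, Ces1d, Aldh3a1 and Aoc3 on each of the 11 arrays, grouped by cells and treatment with treated groups left of their control and the dotted line at the floor of 5.96. Ces1a (12.93 on the brighter probe), Ces1d (11.92) and Aoc3 (12.46) peak on the RF control array, whereas Aldh3a1 peaks at 16.09 in EC cells after AS exosomes and drops to 10.33 in RF cells after ASTspan8 exosomes.

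The genes stood out in RF cells, but they were chosen with results of all groups known, so the EC tests are not independent of that choice. In EC cells 3 of the 4 genes were higher after ASTspan8 exosomes than in control by limma's test with Benjamini-Hochberg adjustment over 18619 probes. 13.1% of genes were called higher in that comparison and 13.0% lower, so calls were common among all genes. On its brighter probe, Ces1a read 11.54 and 11.46 after ASTspan8 exosomes, against 10.26 in EC control cells. On the dimmer probe it read 10.28 and 10.20 after ASTspan8 exosomes, against 9.19 in control. Both treated arrays lay above the control on both probes. The brighter probe rose by 1.24 ± 0.09 (log2, SE; 95% confidence interval 0.978 to 1.502), which is 2.36-fold, with a limma adjusted p = 0.0164. The dimmer probe rose by 1.05 ± 0.08, with the same adjusted p = 0.0164 in limma.

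Ces1d and Aoc3 also rose in EC cells after ASTspan8 exosomes. Ces1d read 8.14 and 8.10 after ASTspan8 exosomes, against 7.58 in EC control cells, a rise of 0.54 ± 0.10 (SE; limma adjusted p = 0.0346). Aoc3 read 10.69 and 10.82 after ASTspan8 exosomes, against 9.82 in EC control cells, a rise of 0.93 ± 0.16 (SE; limma adjusted p = 0.0332). In both genes the duplicates were closer to each other than to the control. Aldh3a1 read 15.48 and 15.47 after ASTspan8 exosomes, against 14.92 in EC control cells, a difference of 0.55 ± 0.17 (95% confidence interval 0.08 to 1.03) whose limma adjusted p = 0.0906 missed the threshold. The single control array is assumed to vary like the duplicated groups. The fit pools the spread of the EC pair with that of the exosome RNA pair, which is outside this contrast. The SDs of the EC and exosome RNA pairs were 0.007 and 0.24 for Aldh3a1, and 0.09 and 0.21 for Aoc3. The SE and interval of these genes therefore rest largely on the exosome RNA arrays. Without either of the EC arrays after ASTspan8 exosomes the contrast was 1 array against 1, with its spread taken from the exosome RNA pair alone. Such a fit cannot decide whether a call holds. The differences of the probes that had passed were then 0.52 to 1.28. The calls of Ces1d and Aoc3 were also lost without the filter on dim probes (limma adjusted p = 0.0768 and 0.0662). The call of Ces1d was lost with trend and robust fitting too (limma adjusted p = 0.0754). Aldh3a1 passed when the 4 EC arrays were fitted alone (limma adjusted p = 0.0418) or the filter was set at the 75th percentile (0.0416).

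Aoc3 was the gene of the 4 that separated the exosome kinds in EC cells by the test. Aoc3 read 10.69 and 10.82 after ASTspan8 exosomes, against 9.30 after AS exosomes, higher by 1.45 ± 0.16 (SE; 2.74-fold, limma adjusted p = 0.029). In that comparison 7.75% of genes were called higher and 8.52% lower. The call was lost without the filter on dim probes (limma adjusted p = 0.0646) and when the EC arrays were fitted alone (0.0542). With 1 or the other EC array after ASTspan8 exosomes left out, the contrast was 1 array against 1, and the difference was 1.39 or 1.52. Aldh3a1 read 15.48 and 15.47 after ASTspan8 exosomes, against 16.09 after AS exosomes, a difference of -0.62 (95% confidence interval -1.09 to -0.14; limma adjusted p = 0.0877). Ces1a read 11.54 and 11.46, against 11.17 after AS exosomes (0.33, interval 0.07 to 0.59, limma adjusted p = 0.0929), and its dimmer probe 10.28 and 10.20, against 10.12 (0.12, interval -0.10 to 0.34, limma adjusted p = 0.342). Ces1d read 8.14 and 8.10, against 7.80 (0.32, interval 0.05 to 0.59, limma adjusted p = 0.105).

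After AS exosomes, 1 array against 1 in EC cells, Aldh3a1 read 16.09 against 14.92 in EC control cells, 2.25-fold higher. It was the 1 member at least 2-fold higher, where 0.136% of genes were. 1.13% of genes were 2-fold lower or more. Ces1a read 11.17 against 10.26 on the brighter probe and 10.12 against 9.19 on the dimmer one. Ces1d read 7.80 against 7.58, and Aoc3 read 9.30 against 9.82, so Aoc3 was the member with a lower value after AS exosomes. These values have no replicate check.

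The untreated cells themselves differed in the same genes. EC control cells and RF control cells read 10.26 and 12.93 for Ces1a, 7.58 and 11.92 for Ces1d, and 9.82 and 12.46 for Aoc3, so EC minus RF was -2.67, -4.34 and -2.64 on the log2 scale. Aldh3a1 read 14.92 in EC and 14.35 in RF control cells. Ces1a, Ces1d and Aoc3 thus read higher in RF control than in EC control cells, on 1 array of each kind and without a test. The genes were chosen for low treated values relative to this RF control array, whose labels conflict. A high RF control value is therefore part of the choice, and nothing follows from the gap between the lines.

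**Figure D3:**
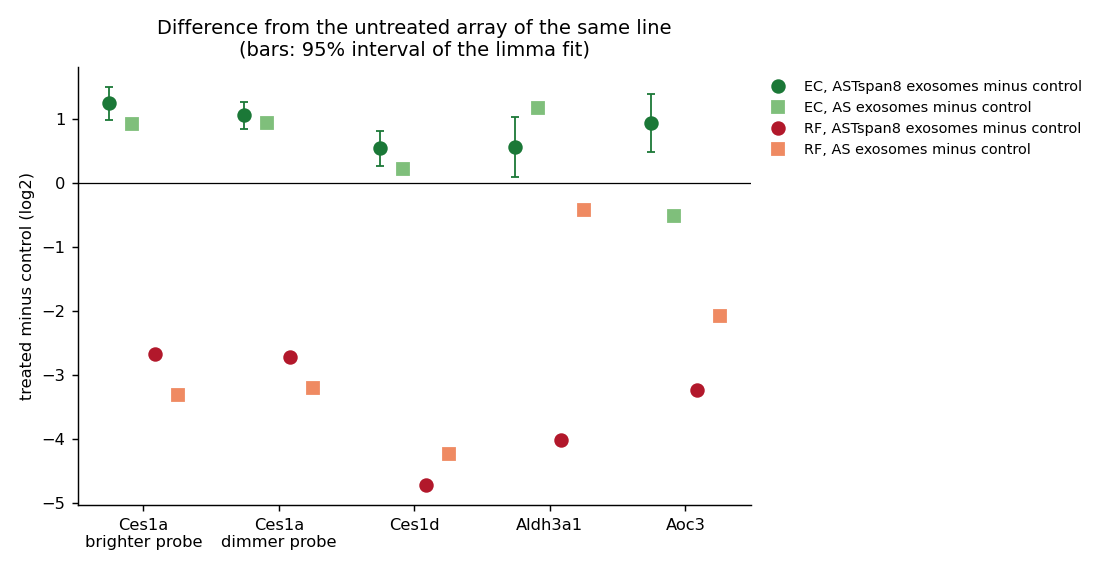
Treated minus control (log2, vertical axis) of each member probe after ASTspan8 and AS exosomes, in RF cells and in EC cells. In RF cells all values are below 0, from -0.43 (Aldh3a1, AS exosomes) to -4.73 (Ces1d, ASTspan8 exosomes), and in EC cells all are above 0 apart from -0.52 for Aoc3 after AS exosomes.

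The relatives of the 4 genes were read in RF cells family by family. Of 19 carboxylesterase genes listed, 16 were on the array and 8 passed the filter. Of those 8, 2 were at least 2-fold lower after ASTspan8 exosomes than in RF control and none was 2-fold higher, with a median of -0.39 against 0.02 for all genes, and the 2 were Ces1a and Ces1d. After AS exosomes 3 were lower, Ces1a, Ces1d and Ces2a, with a median of -0.52 against -0.02 for all genes. Ces2a, a relative of the human intestinal carboxylesterase that hydrolyses prodrugs, read 7.01 and 6.95 after ASTspan8 and AS exosomes, against 8.00 in RF control cells. Counts of a list that holds chosen members do not stand for the list on its own. Of all genes, 5.25% were at least 2-fold lower and 5.16% higher after ASTspan8 exosomes, and 1.17% and 1.0% after AS exosomes.

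Of 20 aldehyde dehydrogenases listed, 14 of 18 on the array passed the filter. After ASTspan8 exosomes 1 was at least 2-fold higher and 2 lower, with a median of -0.03. Of all genes, 5.16% were at least 2-fold higher and 5.25% lower, and Aldh3a1 was chosen on the RF arrays. Aldh3a1 was one of the lower pair, and the other was Aldh5a1, which oxidises succinic semialdehyde, at 8.30 against 10.02 in RF control cells. The higher one was Aldh1l1, an enzyme of folate metabolism, at 7.94 against 6.62. Aldh2, the mitochondrial enzyme that clears acetaldehyde, read 12.87 after ASTspan8 and 12.69 after AS exosomes, against 13.64 in RF control cells. After AS exosomes none of the 14 was at least 2-fold apart from control, with a median of -0.24.

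Of 13 amine and polyamine oxidases listed, 9 of 10 on the array passed the filter. After ASTspan8 exosomes 3 were at least 2-fold lower and none higher, with a median of 0.02. Of all genes, 5.25% were at least 2-fold lower and 5.16% higher. The 3 genes were Aoc3, which was chosen on the RF arrays, Loxl1 and Lox. The products of the Lox pair cross-link collagen and elastin. Loxl1 read 11.10 after ASTspan8 exosomes, against 12.81 in RF control cells, and Lox read 11.59 against 12.83. After AS exosomes Aoc3 was the 1 gene at least 2-fold lower, where 1.17% of all genes were, and Lox read 13.23 against 12.83. The monoamine oxidase Maoa, which acts on serotonin and noradrenaline, read 10.11 and 9.96 after ASTspan8 and AS exosomes, against 10.09 in RF control cells.

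**Figure D4:**
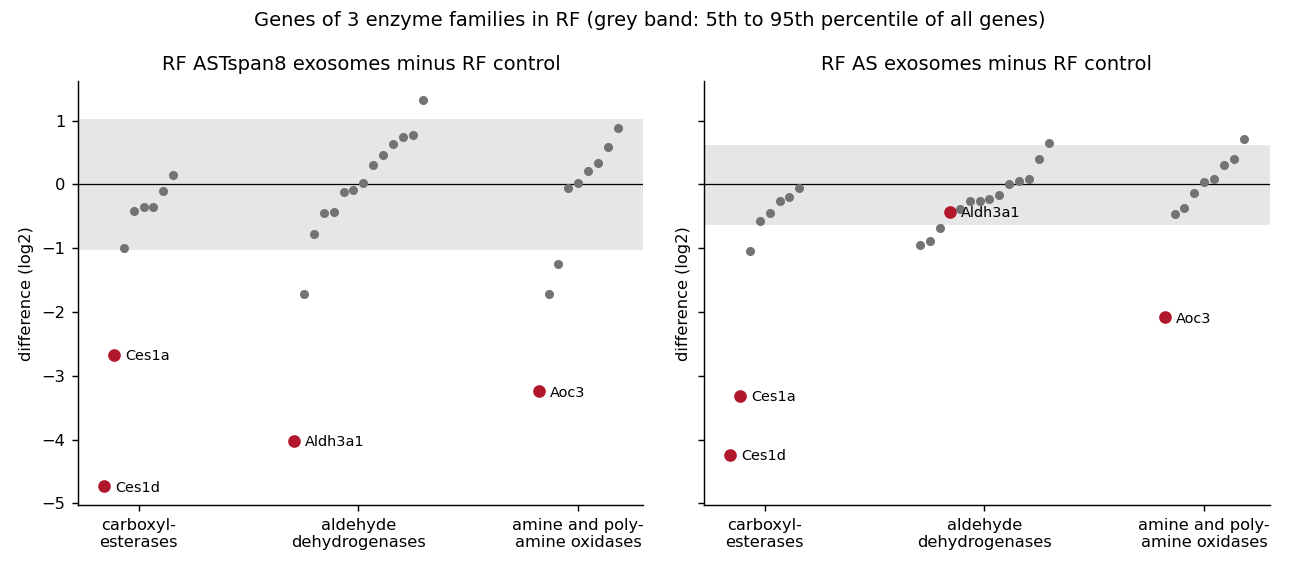
Treated minus control (log2) in RF cells for every gene of the 3 families that passed the filter, after ASTspan8 and AS exosomes, with the members in red and a grey band from the 5th to the 95th percentile of all 11069 genes (-1.01 to 1.01 and -0.62 to 0.60). Most family genes lie between -1 and 1, and Ces1d (-4.73), Aldh3a1 (-4.02), Aoc3 (-3.24) and Ces1a (-2.67) lie lowest after ASTspan8 exosomes.

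In EC cells after ASTspan8 exosomes, limma called 2 carboxylesterases higher and 1 lower of the 8, and 1 aldehyde dehydrogenase higher and 1 lower of the 14. It called 3 amine oxidases higher and none lower of the 9. The 2 carboxylesterases called higher were the members Ces1a and Ces1d, and the member Aoc3 was 1 of the 3 amine oxidases. The medians of the families were -0.03, 0.00 and 0.10, against 0.01 for all genes. Of all genes, 13.1% were called higher and 13.0% lower in this comparison. Beyond the members, Ces5a, an esterase known from the epididymis, read 9.78 and 9.65 against 10.60 in EC control cells and fell by 0.88 (limma adjusted p = 0.0204). Loxl2, a collagen cross-linking oxidase, read 11.69 and 11.62 against 10.55 and rose by 1.10 ± 0.13 (SE; limma adjusted p = 0.0204). Aldh16a1 read 13.66 and 13.71 against 12.85 and rose by 0.83 ± 0.08 (SE; limma adjusted p = 0.0181).

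Aldh3a1 is a known target of the aryl hydrocarbon receptor in rat liver, and that pathway's list was read for this reason. Of 13 genes listed, 7 of 10 on the array passed the filter, and 1 was at least 2-fold lower in RF cells after ASTspan8 exosomes. That gene was Arnt2, a partner protein of the receptor family, at 9.08 after ASTspan8 exosomes, against 10.36 in RF control cells. The median was -0.04 after ASTspan8 and -0.07 after AS exosomes, and 5.25% of all genes were at least 2-fold lower after ASTspan8 exosomes. Cyp1b1, a cytochrome P450 that the receptor induces, read 10.68 after ASTspan8 and 11.63 after AS exosomes, against 11.42 in RF control cells. Ahrr, the repressor of the receptor, read 11.99 and 11.08, against 11.38. Ugt1a6, also of the list, read 12.61 and 13.23, against 13.32, and Nqo1, a quinone reductase, read 12.94 and 12.45, against 12.52. In EC cells after ASTspan8 exosomes Ahrr rose by 0.45 ± 0.08 (SE, limma adjusted p = 0.0317) and Nqo1 fell by 0.55 (limma adjusted p = 0.0407).

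Ces1d and Aoc3 are known from fat tissue, so genes of lipid droplets and lipid-sensing receptors were read as well. Of 19 lipid droplet and lipolysis genes, 10 of 17 on the array passed the filter, and in RF cells after ASTspan8 exosomes 1 was at least 2-fold higher and 1 lower, with a median of 0.05. The lower one was the fatty acid carrier Cd36, at 7.90 after ASTspan8 exosomes and 8.61 after AS exosomes, against 10.24 in RF control cells. The higher one was Pnpla2, the lipase that starts triglyceride breakdown, at 11.28 against 9.83. The next list held 16 genes, namely lipid-sensing and xenobiotic receptors together with Cebp transcription factors, and 10 passed. Of these, 1 was at least 2-fold higher, Cebpb (14.60 against 13.57), and 1 lower, Cebpd (13.56 against 15.37). Both encode transcription factors of fat cell differentiation, so no receptor of the list was at least 2-fold apart. Of all genes, 5.16% were at least 2-fold higher and 5.25% lower. Of 23 alcohol dehydrogenases and carbonyl reductases, 16 of 22 on the array passed, with 1 lower and none higher after ASTspan8 exosomes and a median of -0.30. The lower gene was Akr1c14, a steroid-reducing enzyme, at 6.43 against 7.84.

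In EC cells after ASTspan8 exosomes against control, limma called 3 lipid droplet genes higher and 1 lower of the 10. It called 2 genes of the receptor and Cebp list higher and none lower of the 10. Of the 16 alcohol dehydrogenases and carbonyl reductases, 3 were called higher and 1 lower. The medians were 0.07, 0.25 and 0.17, against 0.01 for all genes. Of all genes, 13.1% were called higher and 13.0% lower in this comparison. G0s2, an inhibitor of the lipase Pnpla2, read 9.19 and 9.13 against 8.20 in EC control cells and rose by 0.96 ± 0.10 (SE; limma adjusted p = 0.02). Rxrb, a partner of lipid-sensing receptors, read 10.27 and 10.26 against 9.55 and rose by 0.72 ± 0.07 (SE; limma adjusted p = 0.0181). Akr7a2, an aldehyde reductase, read 12.27 and 12.34 against 11.76 and rose by 0.55 ± 0.08 (SE; limma adjusted p = 0.0262).

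The pattern of the 4 genes over the 6 EC and RF group means was compared with 563 genes whose means spanned at least 2 log2 units. Aldehyde oxidase Aox1 was the gene most like both carboxylesterases, with Pearson's r = 0.962 to Ces1a and 0.93 to Ces1d. Aox1 read 10.93 after ASTspan8 and 10.51 after AS exosomes, against 13.25 in RF control cells. Ces1d was also among the 5 most alike of Ces1a (0.869) and of Aoc3 (0.916). The 5 for Aldh3a1 were Tnfrsf9 (0.999), Lgals1 (0.99), Gchfr (0.986), Incenp (0.977) and Ankrd37 (0.976). Tnfrsf9, a receptor of activated immune cells, read 7.34 after ASTspan8 exosomes and 8.58 after AS exosomes, against 8.83 in RF control cells.

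The remaining genes most like Ces1a were C19h16orf74, Ogn and Meox2, those most like Ces1d were C19h16orf74, Ptn and Cd36, and those most like Aoc3 were Tm4sf1, Hp, Meox2 and Cd36. Over the same 6 means, r was 0.87 between Ces1a and Ces1d and 0.92 between Ces1d and Aoc3, against 0.33, 0.19 and 0.23 between Aldh3a1 and Ces1a, Ces1d and Aoc3. These values describe 6 points that share arrays, 5 of them single arrays, and for Ces1a, Ces1d and Aoc3 the RF control array is the highest point. The members were chosen on the RF arrays that enter these means. Likeness of one member to another, here and in the lists of most alike genes, is therefore a description and not a separate result. Over all 9 group means, the 5 genes most alike shared 2 genes with this choice for Ces1a and 1 for each of the others.

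Between exosome RNA and ASML cells, Aldh3a1 had the widest gap of the 4 genes. Aldh3a1 read 7.27 and 6.93 in RNA of ASTspan8 exosomes, against 12.21 in ASML wild-type cells, and fell by 5.11 ± 0.17 (SE; 34.5-fold, limma adjusted p = 0.000235). Ces1a read 6.85 and 6.97 on its brighter probe, against 8.31, and fell by 1.40 ± 0.09 (SE; limma adjusted p = 0.00091), and 6.65 and 6.68 on the dimmer probe, against 7.77 (limma adjusted p = 0.001). Both exosome arrays were below the ASML array for these 2 genes. Ces1d read 6.03 and 6.18 against 6.20 (limma adjusted p = 0.428), and Aoc3 read 6.22 and 6.52 against 6.83 (limma adjusted p = 0.0711). In this comparison 35.4% of genes were called lower and 32.3% higher, and vesicle against cell and AS against ASML cannot be told apart.

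In ASML cells with CD44 knocked down, 1 array against 1, Ces1a read 6.61 against 8.31 in wild type on the brighter probe, 3.25-fold lower, and 6.21 against 7.77 on the dimmer probe. It was the 1 member at least 2-fold lower, where 9.01% of genes were, and 10.6% of genes were 2-fold higher or more. Aldh3a1 read 12.89 against 12.21, Aoc3 read 6.99 against 6.83, and Ces1d read 6.13 against 6.20. Neither Ces1d nor Aoc3 rose above 7 in the ASML cells.

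In order of level, Ces1a on its brighter probe was highest in RF control cells (12.93), then in EC cells after ASTspan8 exosomes (11.50 ± 0.06, SD, n = 2), EC cells after AS exosomes (11.17), and RF cells after ASTspan8 exosomes and EC control cells (10.26 each). RF cells after AS exosomes (9.62), ASML wild type (8.31), exosome RNA (6.91 ± 0.09, SD, n = 2) and ASML with CD44 knock-down (6.61) followed. The duplicates differed by 0.08 in EC cells and 0.12 in exosome RNA, so the RF group after ASTspan8 exosomes and EC control are neighbours with no difference beyond the spread. For Ces1d the order was RF control (11.92), EC after ASTspan8 exosomes (8.12), EC after AS exosomes (7.80), RF after AS exosomes (7.68), EC control (7.58) and RF after ASTspan8 exosomes (7.19), with the other 3 groups between 6.11 and 6.20. The steps between EC after AS exosomes and RF after AS exosomes, and between RF after AS exosomes and EC control, were each smaller than the 0.15 between the exosome duplicates. That pair lay near the floor, and both steps were larger than the 0.04 between the EC duplicates.

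Aldh3a1 was highest in EC cells after AS exosomes (16.09), then EC after ASTspan8 exosomes (15.47), EC control (14.92), RF control (14.35), RF after AS exosomes (13.92), ASML with CD44 knock-down (12.89), ASML wild type (12.21), RF after ASTspan8 exosomes (10.33) and exosome RNA (7.10). Each neighbour in that order lay farther away than the 0.34 between the exosome duplicates. Its range over the 11 arrays, 9.16 log2 units, was the widest of the 4 genes, whose other ranges ran from 5.89 for Ces1d to 6.32 for Ces1a. Aoc3 was highest in RF control (12.46), then EC after ASTspan8 exosomes (10.75), RF after AS exosomes (10.38), EC control (9.82), EC after AS exosomes (9.30) and RF after ASTspan8 exosomes (9.22), and lowest in the cancer samples (6.37 to 6.99). For Aoc3, EC after AS exosomes and RF after ASTspan8 exosomes differed by less than the 0.13 between the EC duplicates.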

How the data were processed

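Expression was measured on 11 one-colour rat Agilent arrays. The deposited intensity values are linear and had been normalized by the authors with a method not stated in the labels; per the labels, RNA was extracted with Trizol and labelled as cRNA. Array medians were 7.29 to 7.37 on the log2 scale. Of 30367 probes, 9998 had no gene symbol, and names of the others came from the platform annotation updated through RefSeq GRCr8: 17237 matched by accession, 2569 by symbol, 551 by synonym, and 12 kept the old symbol. A floor at the 1st percentile (log2 5.96) raised 0.816% of values, log2 was taken, and probes above the 50th percentile of their array, on average, in at least 1 of 9 groups were kept (18619 probes; 11748 removed). Genes with several probes were represented by the brightest (11069 genes). limma 3.58.1 in R 4.3.3 fitted 9 group means to the 11 arrays (2 residual degrees of freedom), with Benjamini-Hochberg adjustment and a threshold of 0.05; 1 array against 1 was not tested and was counted at 2-fold. The code was tested on simulated data. The number of arrays limits the precision.

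The members and gene lists were chosen with earlier results of these data known. Named genes were the members, up to 3 genes of each list per comparison with the largest difference on the brightest probe, and the 5 genes most like each member; Ces1c, Ces1e, Cesl1 and the marker genes were named after their values were seen. Promoter windows came from RefSeq GRCr8 and were aligned with Biopython 1.88; figures were drawn with matplotlib 3.10.9 in Python 3.11.15. Alternatives were no filter, a stricter filter, no floor, quantile normalization, trend and robust fitting, the mean of a gene's probes, 4 EC arrays alone, each duplicate left out, and 1.5-fold and 4-fold thresholds.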

Additional observations from a re-analysis of the deposited data

Results flagged for a closer look

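Treated minus control had opposite signs in EC and RF cells for the 4 genes, each against its own control array, apart from Aoc3 after AS exosomes. Some of these differences were small. Aldh3a1 in RF cells after AS exosomes (-0.43) lay within the 5th to 95th percentile of all genes (-0.62 to 0.60). Ces1d in EC cells after AS exosomes was 0.22 above control. Aldh3a1 in EC cells after ASTspan8 exosomes missed the threshold (limma adjusted p = 0.0906). The RF arrays and the control arrays of both lines are single, so the difference between the lines was not tested. After ASTspan8 exosomes, the EC effect minus the RF effect was 5.27 on the log2 scale for Ces1d (0.54 in EC and -4.73 in RF), 4.57 for Aldh3a1 (0.55 and -4.02), 4.17 for Aoc3 (0.93 and -3.24), 3.91 for Ces1a on its brighter probe (1.24 and -2.67) and 3.78 on its dimmer probe (1.05 and -2.73). After AS exosomes it was 4.46 for Ces1d (0.22 in EC and -4.24 in RF), 4.22 for Ces1a on its brighter probe (0.91 and -3.31), 4.14 on its dimmer probe (0.93 and -3.21) and 1.60 for Aldh3a1 (1.17 and -0.43). That value of Aoc3 was below control in both lines (-0.52 in EC and -2.08 in RF). The RF side of each difference is the contrast on which the genes were chosen, so its size is a description.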

How the results depend on the processing

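None of the results computed under another setting reversed its direction. No paired analysis was possible because the groups compared share fewer than 2 replicate numbers. For EC cells after ASTspan8 exosomes against control, limma called 4492 probes. It called 1236 without the filter on dim probes and 6800 with trend and robust fitting. Leaving out 1 array gave 0 to 4732 probes, and the 0 came from either EC array after ASTspan8 exosomes, with 4381 and 4434 probes at an unadjusted p under 0.05. Of the members, 3 were called higher, 1 without the filter, 2 with trend and robust fitting, and 4 with either exosome RNA array left out. Against AS exosomes in EC cells, limma called 2778 probes, 0 without the filter (6265 unadjusted), 4710 with the filter at the 75th percentile and 5851 with trend and robust fitting. It called 0 with the 4 EC arrays alone or with either exosome RNA array left out (8294 unadjusted). In that contrast 1 member was called higher, against 3 at the 75th percentile and 2 with trend and robust fitting. It was 0 without the filter, with the 4 EC arrays alone and with either exosome RNA array left out. No member was called lower, against 1 at the 75th percentile and 1 with trend and robust fitting. The cause of these shifts was not tested. Single members changed their side of the threshold 12 times to a pass and 17 times to a miss over all settings. For the EC contrasts, the 4 EC arrays alone and either exosome RNA array left out gave identical results. These tallies therefore count the same fit more than once, and they also include the fits of 1 array against 1. For exosome RNA against ASML wild type, 12210 probes were called, and 9040 to 13070 with 1 array left out.

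At 1.5-fold and 4-fold in place of 2-fold, the probes counted were 2010 and 33 for RF after AS exosomes against control, 5171 and 174 for RF after ASTspan8 exosomes against control, 4986 and 154 for RF after ASTspan8 against AS exosomes, 898 and 24 for EC after AS exosomes against control, and 7324 and 642 for CD44 knock-down against wild type. Member counts moved to 1 higher at 1.5-fold and 1 lower at 4-fold in RF after ASTspan8 against AS exosomes, to 2 and 0 higher in EC after AS exosomes, and to 1 higher at 1.5-fold and 0 lower at 4-fold in ASML cells. With single arrays in 7 of 9 groups, no RF difference has a measure of spread.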
